A study of Mus musculus with 2 samples.

Results

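Cd209a-positive type 2 dendritic cells of B16 melanomas were described gene by gene in 2 libraries of tumour leukocytes, labelled WT and KO. Members were chosen by measured values, as barcodes with at least 200 detected genes, at most 10% mitochondrial transcripts, and at least 2 unique molecular identifiers (UMIs, counts of single captured mRNA molecules) of Cd209a. They were also required to hold at most 1 UMI of Xcr1 and Clec9a together, no UMI of Ccr7 or of the 3 Cd3 genes, at most 10 C1q UMIs per 10000, and under 100 S100a8 and S100a9 UMIs per 10000. These limits are aimed at type 1 dendritic cells, migratory dendritic cells, T cells, macrophages and granulocytes, although traces of macrophage genes remained in a few members, as given below. The rule found 311 of 13818 cells, 138 of them labelled WT and 173 labelled KO. Levels of the genes in the rule are therefore a description of the choice and not a result.

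The study deleted Mettl3, which encodes the catalytic subunit of the N6-methyladenosine (m6A) mRNA methyltransferase, in myeloid cells, and asked how the leukocytes of B16 tumours changed. WT mice were Mettl3 fl/fl Lyz2 +/+ and KO mice were Mettl3 fl/fl Lyz2 cre/+, so both carried floxed Mettl3 alleles and only the KO mice carried Cre. All were C57BL/6 mice, and the labels give an age of 8 weeks. Tumours were digested, living CD45+ cells were sorted with 7-AAD as the dead-cell stain, and cells pooled from several mice of each genotype went into 1 droplet-based 3′ library per genotype. Lyz2-Cre acts mainly in monocytes, macrophages and granulocytes and in a smaller part of the dendritic cells, which limits it as a model of Mettl3 loss in these cells. In the KO mice the Cre sits in 1 copy of Lyz2. With 1 library per genotype there is no replicate check, genotype and library cannot be told apart, and no test was run between them. The 95% intervals given below reflect the counting of UMIs and cells alone. They are exact for shares and gene ratios, and log-normal approximations for ratios of shares.

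Type 2 conventional dendritic cells take up antigen in tissue and present it on MHC class II, chiefly to CD4+ T cells, and they depend on the growth factor receptor Flt3 and on the transcription factors Irf4 and Klf4. They carry several C-type lectins, receptors that bind sugars on microbes and dead cells. Cd209a is one of the mouse relatives of human DC-SIGN, and Mgl2 and Clec10a are galactose-type lectins. A fraction of cells with this profile arises from monocytes or shares genes with them, so Cd209a alone does not fix an origin.

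Depth and composition of the libraries frame these values. After filtering, the libraries held 5661 and 8157 cells (WT, then KO, an order kept in all pairs of values given without a label). Members had a median of 6620.5 UMIs (range 1249 to 18736) in WT and 5076 (1373 to 28345) in KO, with a median of 2175.5 and 1876 detected genes, and gave 1001293 and 1082607 UMIs in all. Levels are given as CPM, the UMIs of a gene summed over the members of a library per 1000000 UMIs of those cells, and are not divided by gene length, since 3′ libraries count transcript ends. The libraries shared 13 barcode sequences, 0 of them among members. Scrublet, a doublet caller, marked only 1 cell in each library automatically, so the top-scored cells at an assumed doublet rate were left out as an alternative, which removed 2 and 3 members.

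Of the 432 filtered cells with at least 2 Cd209a UMIs, the C1q limit took out the most, 51 in WT and 39 in KO. A Cd3 UMI was present in 31 and 12 of them, and each of the other limits was broken by at most 3 cells of a library. Members held a median of 5 Cd209a UMIs per cell in WT, with a maximum of 35, and 4 in KO, with a maximum of 26. Per 10000 UMIs, the lowest, median and highest Cd209a levels were 1.20, 8.22 and 36.7 in WT and 1.41, 9.51 and 53.1 in KO, so the ranges overlapped almost wholly. Just inside the threshold, 27 and 31 members held exactly 2 Cd209a UMIs. Just outside it, 45 and 61 cells that met the other limits held exactly 1. Mgl2 stood at 102 and 70.6 CPM in the cells with 1 Cd209a UMI, at 187 and 307 CPM in those with 2, and at 615 and 436 CPM over all members. Kmo followed the same order in both libraries, from 117 and 85.5 CPM with 1 UMI to 129 and 173 CPM with 2, whereas Lyz2 was 4382 and 744 CPM in the cells with 1 UMI and 1509 and 915 CPM in those with 2.

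The markers of the label were present in the members of both libraries. Mgl2 (chromosome 11, 70130329-70137550, plus strand, GRCm38) was at 615 CPM in WT and 436 CPM in KO, against 25.9 and 38.2 CPM in type 1 dendritic cells (at least 2 Xcr1 and Clec9a UMIs, 84 and 67 cells). It stood at 8.72 and 18.6 CPM in Ccr7 dendritic cells (at least 2 Ccr7 UMIs and 1 Fscn1 UMI, 92 and 132 cells) and at 75.4 and 89.8 CPM in MHC class II-high monocytes (Ccr2-positive, without Flt3, 335 and 732 cells). Kmo, an enzyme of tryptophan breakdown (chromosome 1, 175620381-175662116, plus strand), was at 159.8 and 173 CPM in members, above 89.1 and 109 CPM in type 1 dendritic cells and 21.98 and 16.6 CPM in the monocytes. H2-DMb2, a chain of the H2-DM peptide-loading chaperone (chromosome 17, 34143307-34151555, plus strand), was at 145 and 147 CPM, against 76.7 and 39.5 CPM in type 1 dendritic cells and 23.5 and 21.1 CPM in the monocytes. Flt3 (chromosome 5, 147330741-147400489, minus strand) was the marker that members carried least, at 96.9 and 88.7 CPM against 246 and 241 CPM in type 1 and 295 and 234 CPM in Ccr7 dendritic cells, and the monocytes lack it by their rule. Zbtb46, a transcription factor of conventional dendritic cells, also stood lower in members, at 34.955 and 30.5 CPM, than in type 1 dendritic cells.

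The transcription factors followed the type 2 pattern. Irf4 was at 51.9 and 53.6 CPM in members against 2.88 and 1.32 CPM in type 1 dendritic cells, and Irf8, which type 1 cells require, was at 177 and 171 CPM against 2088 and 2183 CPM. Sirpa, an inhibitory receptor of type 2 cells, stood at 294 and 322 CPM and the integrin Itgam at 213 and 287 CPM. Neither set members apart from the MHC class II-high monocytes. Sirpa had a UMI in 79.0% and 69.4% of members and in 81.2% and 82.0% of the monocytes. Itgam had one in 58.7% and 60.1% of members and in 74.9% and 75.7% of the monocytes. Of the B cell list, Cd79a had 0 and 1 UMI and Ms4a1 none, but Ighm, the immunoglobulin heavy chain and the only one of its 10 genes at 50 CPM, had 118 and 100 UMIs (118 and 92.4 CPM). The T and NK cell list summed to 434 and 297 CPM, of which Klrd1 made up 410.5 and 281 CPM, while Trbc2 had 3 and 1 UMI in cells chosen without Cd3. Pmel of melanoma cells gave 13 and 17 UMIs. Monocyte genes were present at lower levels than in the monocytes. Fcgr1 was at 118 and 159.8 CPM against 386 and 531 CPM, and Ly6c2 at 156 and 204 CPM against 393 and 575 CPM. Ccr2, the receptor that brings monocytes into tissue, was at 690.1 and 631 CPM in members and at 1196 and 1139 CPM in the monocytes, whose rule required at least 2 Ccr2 UMIs.

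**Figure D1:**
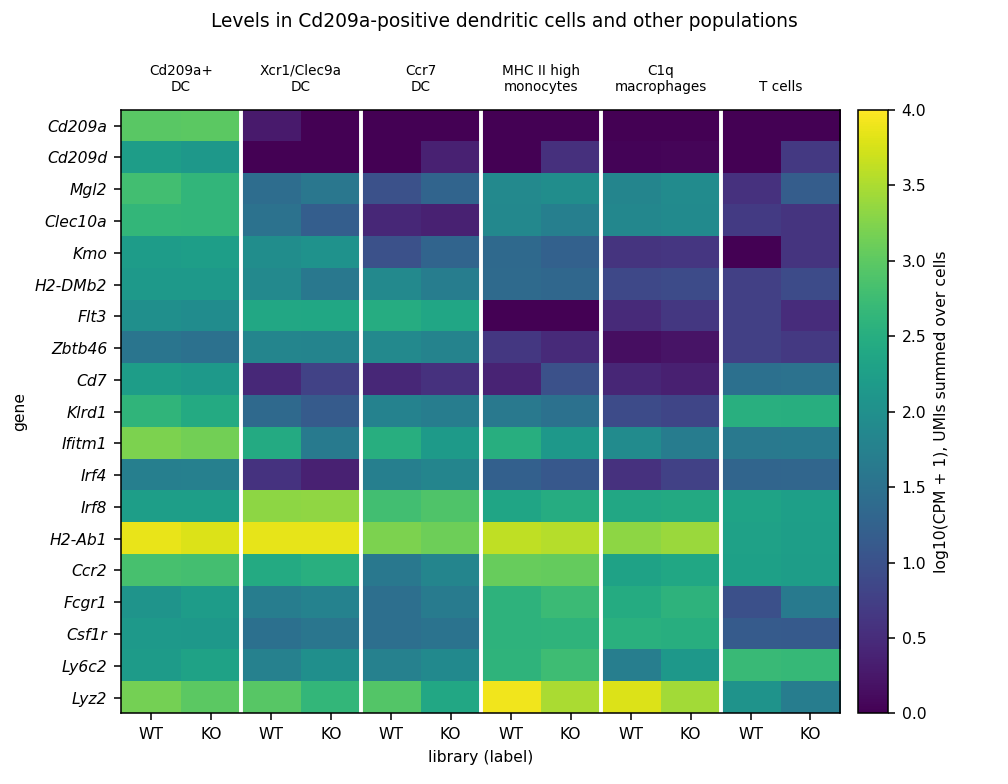
Heat map of 19 genes (rows) in 6 populations, each as WT and KO library (columns), as log10 of CPM + 1. The Cd209a-positive dendritic cells in the first pair of columns combine Cd209d, Mgl2, Clec10a, Cd7, Klrd1 and Ifitm1, keep Irf8 low, and hold less Flt3 than the other dendritic cells and less Lyz2 and Fcgr1 than the monocytes.

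Beyond the markers, a small group of genes set members apart from all of the comparison populations. Of 2597 genes at 50 CPM or more that the rules did not use, 26 (1.0%) were at least 2-fold higher in members than in type 1 dendritic cells, Ccr7 dendritic cells and MHC class II-high monocytes, in both libraries. The 15 with the largest margin, ranked by the lowest of the 6 log2 ratios, were Cd209d (5.25), Cd7 (3.90), Ddr1 (3.22), Ctnnd2 (2.86), Ffar2 (2.68), Clec10a (2.58), Klrd1 (2.49), Ifitm1 (2.30), Mgl2 (2.27), Cdh1 (2.20), Trappc5 (1.91), Bcl11a (1.62), Fcor (1.60), Lta4h (1.60) and Il1r2 (1.30). They spanned lectins, surface receptors, adhesion genes and a transcription factor.

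Among the lectins, Cd209d, a neighbour and paralogue of Cd209a (chromosome 8, 3871824-3878555, minus strand), was at 167 and 133 CPM and at most 2.53 CPM in the 3 comparison populations. Because the Cd209 genes resemble each other, reads of one could be assigned to another, and these levels are uncertain to that extent. Clec10a lies beside Mgl2 on chromosome 11 (70156197-70170834, plus strand) and was at 444 and 432 CPM, with a UMI in 70.3% of members in WT and 68.2% in KO. Its lowest, median and highest per-cell levels were 0, 2.60 and 27.5 UMIs per 10000 in WT and 0, 2.43 and 45.7 in KO. Clec10a was thus the most widely detected of the galactose-type lectins, and Mgl2, with higher summed levels or nearly equal ones, sat in fewer cells, 44.2% (35.8 to 52.9) in WT and 39.3% (32.0 to 47.0) in KO. When each cell was thinned to 2000 UMIs, which left out 3 and 5 members, Mgl2 was detected in 39.3% and 29.8% of members and in 0.588% and 1.54% of T cells, which should lack it.

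Among the surface receptors, Cd7, an immunoglobulin-family receptor best known from T and NK cells, was at 166 and 144 CPM in members, with a UMI in 38.4% and 38.2% of cells. At 2000 UMIs per cell Cd7 was detected in 23.7% and 21.4% of members and in 5.88% and 5.13% of T cells defined by Cd3. Klrd1, the CD94 chain of NK receptors, was at 410.5 and 281 CPM, near the T cell level of 335 and 327 CPM. At 2000 UMIs per cell it was found in 40.7% and 37.5% of members, in 40% and 36.9% of T cells, and in only 4.10% and 3.44% of MHC class II-high monocytes. Klrd1 was the only gene of the 14 on the T and NK cell list that reached 50 CPM in members, whose rule had removed cells with a Cd3 UMI. Ffar2, a receptor for short-chain fatty acids, was at 108 and 71.1 CPM, the collagen receptor Ddr1 at 97.9 and 77.6 CPM, and the decoy receptor Il1r2, which binds interleukin-1, at 121 and 82.2 CPM.

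Ifitm1, a membrane protein that restricts virus entry, had the highest level of the 15, 1605 and 1407 CPM, and was very uneven from cell to cell. It had no UMI in 49 WT and 71 KO members, a median of 4.07 and 2.06 UMIs per 10000, and a maximum of 322 and 192. The adhesion genes were Cdh1, which encodes E-cadherin, at 125 and 83.1 CPM, and Ctnnd2, a catenin, at 78.9 and 63.7 CPM. Bcl11a, a transcription factor of lymphoid and dendritic cell progenitors, was at 167 and 176 CPM, and Lta4h, the enzyme that makes leukotriene B4, at 114 and 129 CPM.

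A chromosomal grouping was noticed in this list after its values were seen. Cd209d, Trappc5 and Fcor all lie within 250 kb of Cd209a on chromosome 8, at distances of 122.8, 62.1 and 71.0 kb. That window holds 22 other annotated genes, of which 16 had a UMI in members and 6 reached the level needed for the comparison. Of these 6, Cd209d, Trappc5 and Fcor were at least 2-fold higher in members throughout, and Pet100, Stxbp2 and Mcemp1 were not. Trappc5, a subunit of a vesicle tethering complex, was at 153.8 and 149.6 CPM in members against 34.5 and 30.3 CPM in type 1 dendritic cells and 35.96 and 34.8 CPM in the monocytes. Below the 50 CPM limit, Cd209e was at 39.0 and 21.2 CPM in members and had no UMI in the comparison populations, and Cd209c was at 7.99 and 8.31 CPM.

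Gene lists described each contrast in turn, read beside the share of all genes that passed in the same contrast. Against type 1 dendritic cells, 243 of 2861 genes (8.49%) were at least 2-fold higher in members in both libraries and 121 (4.23%) at least 2-fold lower. C-type lectins stood higher for 9 of 10 genes and lower for 0, with a median log2 ratio of 3.11, and the monocyte list for 10 of 13, among them Fcgr1, Csf1r, Fn1 and Plac8. All 15 measured genes of the type 1 list were lower, including Irf8, Batf3, Tlr3 and Wdfy4. Cell cycle genes were lower for 6 of 12, such as Mki67 and Birc5. Type I interferon response genes were higher for 9 of 20, among them Ifit1, Ifit2, Ifit3 and Ifi204, and lower for 0.

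By the count of genes, Ccr7 dendritic cells were the most distant of the 3 populations. Against them, 667 of 3124 genes (21.4%) were higher in members and 446 (14.3%) lower. The list of mature dendritic cell genes was lower for 15 of 15, and NF-kB target genes, which include the survival genes Birc3 and Bcl2a1b and the inhibitor Nfkbia, were lower for 10 of 19 and higher for 0. MHC class II presentation was higher for 5 of 8, namely March1, Ciita, H2-Oa, H2-DMa and H2-DMb1. Il12b, a chain of the T cell-polarising cytokine interleukin-12, had no UMI in members, a count that allows up to 3 UMIs in each library, and was at 153 and 182 CPM in Ccr7 dendritic cells.

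By the same count, MHC class II-high monocytes were the nearest. Against them, 85 of 3012 genes (2.82%) were higher in members and 194 (6.44%) lower. Monocyte list genes were lower for 14 of 19, with Ear2 the exception that stood higher, and macrophage genes were lower for 9 of 13. Cytokines and chemokines were lower for 8 of 15, with Ccl17, a chemokine for Ccr4-bearing T cells, the only one higher, at 94.9 and 84.1 CPM in members. Ccl17 was carried by few cells, with no UMI in 124 of 138 WT and 163 of 173 KO members and up to 50.3 and 49.9 UMIs per 10000 in the others. Conventional dendritic cell genes stood higher for 5 of 8, which were Kmo, Dpp4, Nectin1, Jaml and Bcl11a. Type 2 dendritic cell genes stood higher for only 4 of 14, which were Cd209d, Mgl2, Clec10a and Irf4, and lower for 1, Clec12a. H2-Ab1, a chain of the classical MHC class II molecule, was at 7322.5 and 6143.5 CPM in members, 7101 and 7004 CPM in type 1 dendritic cells, and 4211 and 3600 CPM in the monocytes, whose rule required MHC class II transcripts.

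Members varied among themselves in a few genes far more than in most. The variance of counts per 10000 UMIs divided by their mean had a median of 2.35 over 2603 genes. It reached 407 for Spp1, a secreted matrix protein of macrophages, and 220 for Cxcl2, which attracts neutrophils, but 1 WT cell held 305 of the 334 Spp1 UMIs of its library and 1 cell held 174 of the 227 Cxcl2 UMIs. Lepr (78.5), Hmox1 (66.3) and Pf4 (58.2) likewise rested on few cells. Ifitm1 (58.4), Lyz2 (50.8), Cst3 (56.0) and Cd74 (39.6) were spread over many cells, and their range is the wider variation of the population. Lyz2 had no UMI in 36 WT and 77 KO members, a median of 2.56 and 1.60 UMIs per 10000, and a maximum of 171 and 88.7.

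**Figure D2:**
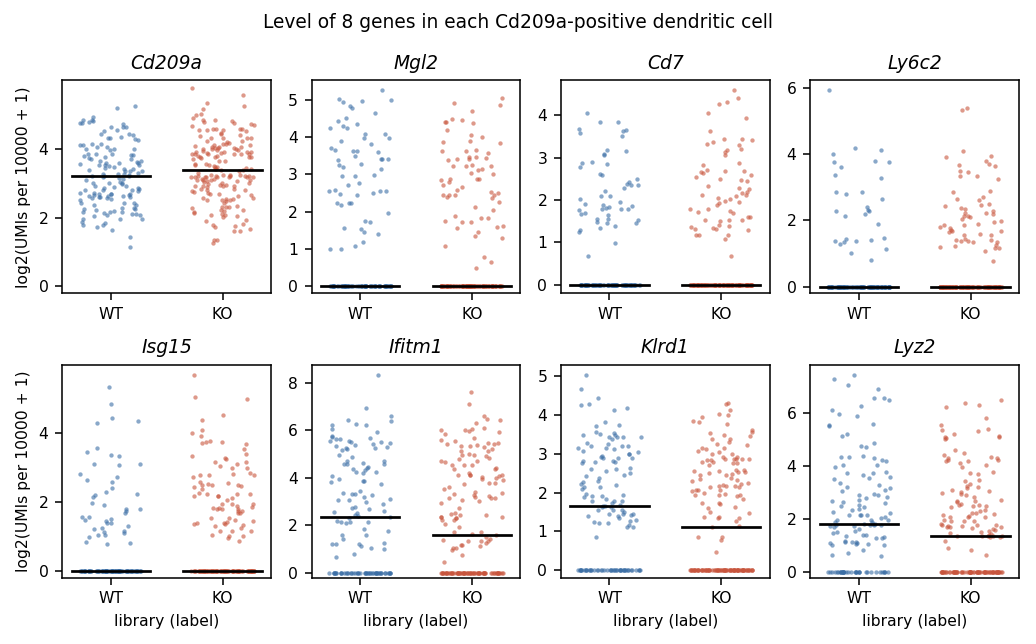
Level of 8 genes in each of the 138 WT and 173 KO members, as log2 of UMIs per 10000 + 1 (vertical axis, a scale of its own for each gene), with a bar at the median. Cd209a is present in all members by the rule, Mgl2, Cd7, Ly6c2 and Isg15 have a median of 0 in both libraries with a detected fraction above it, and Ifitm1 spans the widest range.

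The members could be divided by single genes, and those divisions were chosen after values were seen, so they are given as descriptions. Cells with an Mgl2 UMI (61 in WT and 68 in KO) had more UMIs, with medians of 8177 and 6827 against 5633 and 4110 in the others. Ear2, an eosinophil-associated ribonuclease, was at 211 CPM in WT members with Mgl2 and 6.45 CPM without it, and at 203 and 7.62 CPM in KO. Ccl17 was at 164 against 15.1 CPM in WT and 163 against 0 CPM in KO. H2-DMb2 was at 201 against 79.6 CPM and 226 against 62.9 CPM, and the summed MHC class II list at 45474 against 32836 CPM and 38218 against 32006 CPM. Ly6c2 was lower with Mgl2, at 35.4 against 295 CPM in WT and 108 against 307 CPM in KO, and so was Flt3, at 59.7 against 139.8 CPM and 39.4 against 141 CPM.

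Cells with a Cd7 UMI (53 and 66) showed another profile. Their median depth was close to that of the others, 6132 against 6843 UMIs in WT and 4935.5 against 5174 in KO. Tcf4, the transcription factor that drives plasmacytoid dendritic cells, was at 331 against 68.3 CPM in WT and 398 against 101 CPM in KO. Bcl11a was at 295 against 86.2 CPM and 356 against 85.7 CPM, and Cd209d at 303 against 81.3 CPM and 267 against 66.3 CPM. Flt3 was higher with Cd7, at 148 against 65.0 CPM and 192 against 37.3 CPM. Ear2, Ccl17 and Fn1 were lower, Fn1 at 82.8 against 337 CPM and 100.2 against 355 CPM. Siglech, a defining gene of plasmacytoid cells, was found in 6.52% of WT and 5.78% of KO members, counted over all members and not over those with Cd7.

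Cells with a Ly6c2 UMI (31 and 60) carried more of the monocyte list, 8786 against 3441 CPM in WT and 7369 against 3578 CPM in KO, and less of the MHC class II list, 22483 against 44767 CPM and 23832 against 42960 CPM. Lyz2 was at 3440.4 against 869.6 CPM in WT and 1835 against 391 CPM in KO, and the monocyte attractant Ccl2 at 267 against 62.4 CPM and 1384 against 138 CPM. Ctsl, a lysosomal protease, was at 159.5 against 35.1 CPM and 214 against 46.6 CPM. H2-Oa, H2-DMb2 and Il1r2 were lower with Ly6c2, H2-Oa at 17.2 against 121 CPM and 20.5 against 115 CPM. Both Mgl2 and Ly6c2 UMIs were found in 6 of the 61 Mgl2 cells of WT (9.84%) and 18 of the 68 of KO (26.5%). Of the Ly6c2 cells, the same cells were 6 of 31 and 18 of 60. Ly6c2 is also read in T cells, at 47.9% and 45.5% of cells, so a single UMI does not mark a monocyte.

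**Figure D3:**
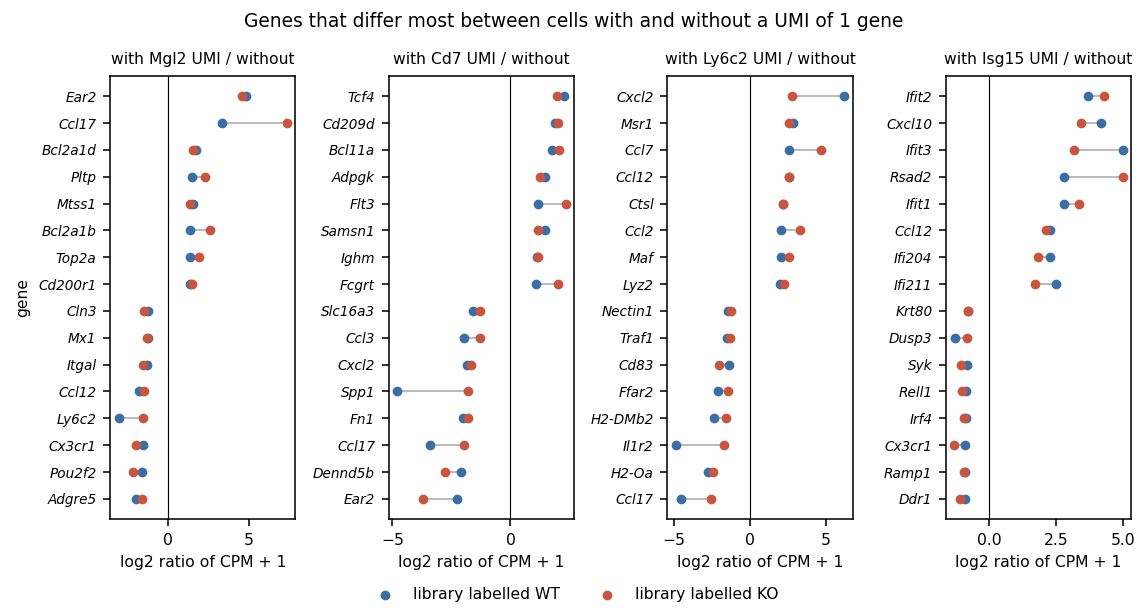
Log2 ratio of CPM + 1 between members with and without a UMI of Mgl2, Cd7, Ly6c2 or Isg15 (horizontal axis, a scale of its own in each panel) for the 8 highest and 8 lowest of the genes reported for each division, blue for the library labelled WT and red for KO. Each gene lies on the same side of 0 in both libraries, which the choice of genes requires, with Ear2 and Ccl17 leading the Mgl2 cells, Tcf4 and Cd209d the Cd7 cells, and Lyz2 and Ccl2 among those of the Ly6c2 cells.

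Interferon response genes made a further division. Cells with an Isg15 UMI (46 in WT and 82 in KO) had Ifit2 at 98.6 against 6.72 CPM in WT and 189.8 against 8.78 CPM in KO. Cxcl10, an attractant for Cxcr3-bearing T cells, was at 197 against 10.1 CPM and 431 against 39.5 CPM, and Ly6a at 909 against 193 CPM and 727 against 233 CPM. Irf4 was lower with Isg15, at 34.5 against 63.8 CPM and 38.3 against 74.6 CPM, as was Ddr1, at 64.1 against 121 CPM and 52.6 against 112 CPM. Isg15 cells were deeper, with medians of 8175 and 6288 UMIs against 6027 and 4513.

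The comparison of the libraries asked whether these cells differed in number or expression where myeloid cells carried the Mettl3 deletion. Members were 2.44% (2.05 to 2.87) of filtered cells in WT and 2.12% (1.82 to 2.46) in KO, a log2 ratio of −0.20 (−0.52 to 0.12). Among the dendritic cells of the 3 rules they were 43.9% (38.4 to 49.6) of 314 and 46.5% (41.3 to 51.7) of 372, a log2 ratio of 0.08 (−0.16 to 0.32). Type 1 dendritic cells were 26.8% of the dendritic cells in WT and 18.0% in KO, a log2 ratio of −0.57 (−0.98 to −0.16). These intervals count cells of 1 library per genotype and do not show whether the genotypes differ in share.

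Mettl3 itself (chromosome 14, 52294841-52305128, minus strand) did not separate the libraries. Members held 9 Mettl3 UMIs in WT and 10 in KO, or 8.99 and 9.24 CPM, a log2 ratio of 0.04 (−1.41 to 1.52). A 3′ library counts the end of the transcript, and where the floxed exons lie was not given in the sources used here, so this count does not check the deletion. Lyz2, which carries the Cre, was at 1465 CPM in WT and 976 CPM in KO, a log2 ratio of −0.59 (−0.70 to −0.47). Over the alternatives that ratio ran from −1.21 to −0.26, the latter with at most 5 C1q UMIs per 10000 allowed. Lyz2 was also lower in KO in the monocytes (8094 and 3127 CPM) and in C1q macrophages (6155 and 2767 CPM). T cells, whose rule allowed at most 2 Lyz2 UMIs per cell, held 114 and 48.3 CPM. The part of Lyz2 RNA from other cells in the difference among members was not tested. Lyz1, its near-identical neighbour, gave 11 and 39 UMIs and is uncertain because reads can be shared between the pair. Mettl14, the partner of Mettl3, was at 14.98 and 21.2 CPM with a log2 ratio of 0.50 (−0.50 to 1.55), and Spred2, a brake on ERK signalling, at 11.985 and 12.9 CPM.

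Most genes stood at similar levels in both libraries. Over the 2833 genes that reached 50 CPM in at least 1 library, the median log2 ratio of KO over WT was 0.03 and the 5th and 95th percentiles were −0.45 and 0.55. A gene could enter through the library where it was higher alone, so near 50 CPM this filter favours large ratios, also within the lists. At least 1.5-fold differences were found for 115 genes higher in KO (4.06%) and 77 lower (2.72%). A single cell held over 20% of the UMIs of 17 of the higher and 9 of the lower genes in the library where the gene was higher, and those were set apart from the genes named next. Among the single genes named in the text, 48 had a log2 ratio past 1.5-fold, and 29 of these fell short of it or turned under at least 1 other setting.

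Genes of the interferon response and chemokines led the higher side. The 10 with the highest ratios in which no KO cell held over 20% of the KO UMIs were Ccl2, Iigp1, Cxcl10, Maf, Mxd1, Hk3, Ifit1, Gbp2, Ifit2 and Cxcl9. Ccl2 had 110 UMIs in WT and 696 in KO, or 109.9 and 643 CPM, a log2 ratio of 2.55 (2.26 to 2.85). It was detected in 47 and 56 cells (34.1% and 32.4% of members), and 139 of the KO UMIs sat in 1 cell. At 2000 UMIs per cell it was found in 19.3% and 20.2% of members, and in 17 of 170 and 23 of 195 T cells (10% and 11.8%), which should lack it, so a background of that order lies within the shares of members. Iigp1, an immunity-related GTPase, was at 18.0 and 78.5 CPM, a log2 ratio of 2.13 (1.38 to 2.95). Cxcl10 was at 85.9 and 266 CPM (1.63; 1.28 to 2.0), and Cxcl9, which attracts the same T cells, at 129 and 315 CPM (1.29; 0.99 to 1.59). At 2000 UMIs per cell Cxcl10 was found in 7.41% and 14.9% of members and in 2.35% and 8.72% of T cells, so its detection was higher in KO in both. In WT 1 cell held 38.4% of the Cxcl10, 32.3% of the Ifit1, 22.7% of the Ifit2 and 23.3% of the Cxcl9 UMIs. Iigp1, Maf, Mxd1, Hk3, Ifit1 and Ifit2 reached 50 CPM in KO alone, the library where they were higher. Gbp2, a guanylate-binding protein of cell-autonomous defence, was at 82.9 and 215 CPM (1.38; 1.01 to 1.76). Maf, a transcription factor of macrophages, was at 34.0 and 104 CPM, Mxd1, a Max-binding repressor, at 21.97 and 64.7 CPM, and the hexokinase Hk3 at 18.975 and 54.5 CPM. For ratios with cells thinned to 2000 UMIs, here and below, the rule chose the members anew from the thinned counts. Depth and membership thus both changed in them, whereas the thinned shares kept the members fixed. With that thinning the log2 ratio of Maf was −0.16, against 1.62, and that of Hk3 0.08, against 1.52. Without the members with a Ly6c2 UMI the log2 ratio of Maf was 0.81. Thinning raised the log2 ratio to 4.18 for Ifit2, 4.01 for Cxcl10, 3.26 for Gbp2, 2.71 for Ifit1 and 2.69 for Mxd1, and lowered that of Ccl2 to 1.24.

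On the lower side the ratios were smaller. Its 10 genes were Mllt10 (log2 ratio −1.14), Cxcl16 (−1.09), Nr4a1 (−1.06), Gcsh (−1.01), Mta3 (−1.01), Krt80 (−0.94), Cd302 (−0.88), Lmna (−0.87), Eef1akmt1 (−0.86) and Tob1 (−0.84). Cxcl16, a membrane-bound chemokine for Cxcr6-bearing T cells, was at 66.9 CPM in WT and 31.4 CPM in KO, in 32 and 22 cells, with an interval of −1.73 to −0.48. Nr4a1, an early response receptor that antigen and stress induce, was at 57.9 and 27.7 CPM in 37 and 25 cells. Cd302, a C-type lectin receptor, was at 50.9 and 27.7 CPM. All 10 had counts between 25 and 92 UMIs in each library, so their intervals are wide. Each of them reached 50 CPM in WT alone, the library where it was higher, and the filter thus favoured them. With cells thinned to 2000 UMIs the log2 ratio of Mta3 was −0.18 and that of Cd302 −0.08, and with 1 Cd209a UMI sufficient that of Lmna and of Tob1 was −0.37 and that of Eef1akmt1 −0.56. Without the members with a Ly6c2 UMI that of Mllt10 was −0.53. All of these are short of 1.5-fold.

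**Figure D4:**
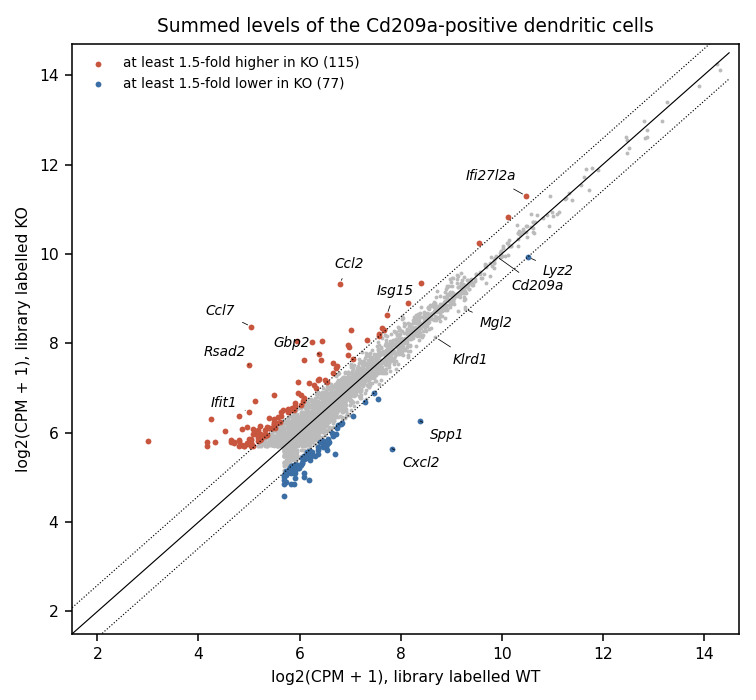
Summed level of each of 2833 genes in the members of the library labelled WT (horizontal axis) and KO (vertical axis), as log2 of CPM + 1, with dotted lines at a 1.5-fold difference. The 115 genes higher in KO (red) include Ccl2, Ccl7, Rsad2, Ifit1 and Isg15, the 77 lower (blue) include Lyz2, Spp1 and Cxcl2, and Cd209a lies near the line of equal level.

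Each list count from here on stands beside a share of 4.06% higher and 2.72% lower over all 2833 genes. Of the lists, type I interferon response genes had the most genes past 1.5-fold. Of 30 genes 23 were measured at 50 CPM, 22 of them stood above 0 with a median log2 ratio of 0.52, and 11 were at least 1.5-fold higher and 0 lower. The 11 include Rsad2, Cmpk2 and Ifit3, of whose KO UMIs 1 cell held 25.4%, 27.1% and 22.5%. Rsad2, Cmpk2, Ifit1, Ifit2 and Ifit3 were among those measured only because they reached 50 CPM in KO, where they were higher. The filter thus favoured the higher calls of this list. Isg15, a ubiquitin-like protein, had 211 UMIs in WT and 428 in KO, or 211 and 395 CPM, a log2 ratio of 0.91. It was detected in 33.3% (25.5 to 41.9) and 47.4% (39.8 to 55.1) of members, and at 2000 UMIs per cell in 18.5% and 31.0% of members against 9.41% and 17.9% of T cells. Ifi27l2a was the most abundant of the list, at 1428 and 2518 CPM, and its log2 ratio of 0.82 was 0.35 with cells thinned to 2000 UMIs. Ifit1, which binds viral RNA, was at 31.0 and 87.8 CPM in 15 and 41 cells. Oasl2 was the gene that did not stand above 0, at 86.9 and 86.8 CPM. The summed list ran from 3.86 to 310 UMIs per 10000 over WT members with a median of 26.4, and from 1.77 to 444 over KO members with a median of 39.2, so the cells of both libraries overlapped widely.

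The shift was smaller when some members were left out, a choice made after the data were seen. Without the 4 WT and 8 KO members with macrophage traces (at least 30 UMIs per 10000 of the macrophage list other than Mrc1), the median of the list was 0.28 and the Isg15 log2 ratio 0.35. Without the members with a Ly6c2 UMI they were 0.26 and 0.06. That choice follows the shift in part, since 8 of 31 WT and 31 of 60 KO members with a Ly6c2 UMI also had an Isg15 UMI. Ifit1 was at 1.0 and 0.98 in the same order, Rsad2 at 1.75 and 1.92 against 2.56 over all members, and Cxcl10 at 1.56 and 1.69.

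The same list was higher in KO in each population examined. Its summed level was 1.57 times as high in KO members as in WT members, 1.41 times in type 1 dendritic cells, 1.39 times in Ccr7 dendritic cells, 1.47 times in MHC class II-high monocytes, 1.46 times in C1q macrophages and 1.34 times in T cells. The median log2 ratios were 0.52, 0.45, 0.51, 0.58, 0.60 and 0.51 in the same order. In these 6 populations the summed list was thus higher in KO also outside the Cd209a-positive cells.

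Promoter sequences of this list show a shared letter pattern and are printed for Ifit1 and Isg15, which are induced by interferon in many cells. The interferon-stimulated response element is a pair of GAAA blocks, so the letters GAAANNGAAA were searched on both strands, from 250 bases before to 50 bases after each start, in the RefSeq promoters of GRCm38.p6. They were found for 10 of the 16 measured type I interferon genes with a promoter in the set (62.5%) and for 6 of 12 genes of the interferon gamma list, against 122 of all 2270 genes measured (5.37%) and 1079 of 27025 promoters (3.99%). Among genes at least 1.5-fold higher in KO, 13 of 84 (15.5%) held it. These 84 include interferon list genes such as Ifit1 and Isg15, so this share overlaps with those of the lists. Both sequences run 5′ to 3′ on the strand of the gene, with matches in capitals. Ifit1 lies at chr19:34640639-34640938 on the plus strand and holds 2 matches, and Isg15 lies at chr4:156200769-156201068 on the minus strand and holds 3 that overlap. A match is a match of letters and not a measured binding site.
Ifit1: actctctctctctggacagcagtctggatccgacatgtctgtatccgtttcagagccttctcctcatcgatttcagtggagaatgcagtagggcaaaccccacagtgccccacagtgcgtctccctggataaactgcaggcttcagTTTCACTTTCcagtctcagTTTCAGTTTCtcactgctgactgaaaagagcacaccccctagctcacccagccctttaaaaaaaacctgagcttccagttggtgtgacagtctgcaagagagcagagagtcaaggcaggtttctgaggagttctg
Isg15: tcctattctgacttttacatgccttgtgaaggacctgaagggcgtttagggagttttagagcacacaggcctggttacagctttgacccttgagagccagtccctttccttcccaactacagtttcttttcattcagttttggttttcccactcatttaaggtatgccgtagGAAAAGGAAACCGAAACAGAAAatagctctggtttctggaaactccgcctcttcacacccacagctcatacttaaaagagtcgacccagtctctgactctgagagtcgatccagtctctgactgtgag

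Interferon gamma response genes stood higher as well, with 7 of 15 at least 1.5-fold higher, 0 lower and a median log2 ratio of 0.52. Over the alternatives that median ran from 0.16 to 0.65. Of the 7, Iigp1, Serpina3g, Gbp5 and Wars reached 50 CPM in KO alone, so the filter favoured their calls. Iigp1, Gbp2, Cxcl9 and Serpina3g led the list, the last at 27.96 and 66.5 CPM, and Gbp5 was at 33.0 and 66.5 CPM. Ifngr1, the receptor chain itself, was at 241 and 171 CPM. MHC class I presentation was higher by less, with a median of 0.27 and 14 of 15 genes above 0, and only Tap1, a peptide transporter, passed 1.5-fold, at 189 and 286 CPM, a log2 ratio of 0.60 that was 0.46 with 1 Cd209a UMI sufficient. H2-K1 and B2m, the class I heavy and light chains, differed little, at 1107 and 1213 CPM and at 1659 and 1877 CPM.

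MHC class II presentation moved the other way by a small amount. Its median log2 ratio was −0.15, 10 of 13 genes stood below 0, and none was 1.5-fold lower. Cd74, the invariant chain, was at 15313 and 13841 CPM, H2-Eb1 at 7531 and 6312.5 CPM, and Ciita, the master regulator of these genes, at 335 and 299 CPM. Lgmn, a lysosomal protease that trims antigens and is abundant in macrophages, was the only gene past 1.5-fold, at 124 and 212 CPM, a log2 ratio of 0.78 that was 0.28 with 1 Cd209a UMI sufficient. The summed list was 0.889 times as high in KO as in WT in members, 0.977 times in type 1 dendritic cells, 0.789 times in Ccr7 dendritic cells, 0.892 times in the MHC class II-high monocytes, 1.16 times in C1q macrophages and 1.05 times in T cells.

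Cytokines and chemokines had the highest median, 0.61 over 14 genes, with 7 at least 1.5-fold higher and 2 lower, but rested in part on few cells. That median was 0.16 by the mean of per-cell CPM and 0.24 with up to 20 C1q UMIs per 10000 allowed. In other populations it was 0.95 in T cells, 0.51 in MHC class II-high monocytes, 0.49 in Ccr7 dendritic cells, 0.28 in type 1 dendritic cells and 0.16 in C1q macrophages. The T cells also held the melanoma list at 74.25 and 1530 CPM and the macrophage list at 1311 and 1733 CPM. The part of RNA from other cells in the T cell values was not tested. Ccl7 had 32 UMIs in WT and 358 in KO, 96 of them in 1 cell, and its log2 ratio turned to −0.40 with cells thinned to 2000 UMIs. Ccl12 had 75 and 281, with 102 in 1 cell. Ccl6, at 339 and 655 CPM, and Ccl4, at 81.9 and 144 CPM, were also higher, while Il1b, at 239.7 and 249 CPM, Tnf, at 55.9 and 52.7 CPM, and Tgfb1 differed by under 1.5-fold. Macrophage traces went with the CC chemokines. The 4 WT and 8 KO members with such traces held 25 of 110 and 315 of 696 Ccl2 UMIs, and 9 of 32 and 232 of 358 Ccl7 UMIs. Their medians of 11215.5 and 11239 UMIs were above those of all members. Without them the Ccl2 log2 ratio was 2.12, and without the members with a Ly6c2 UMI it was 1.15.

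**Figure D5:**
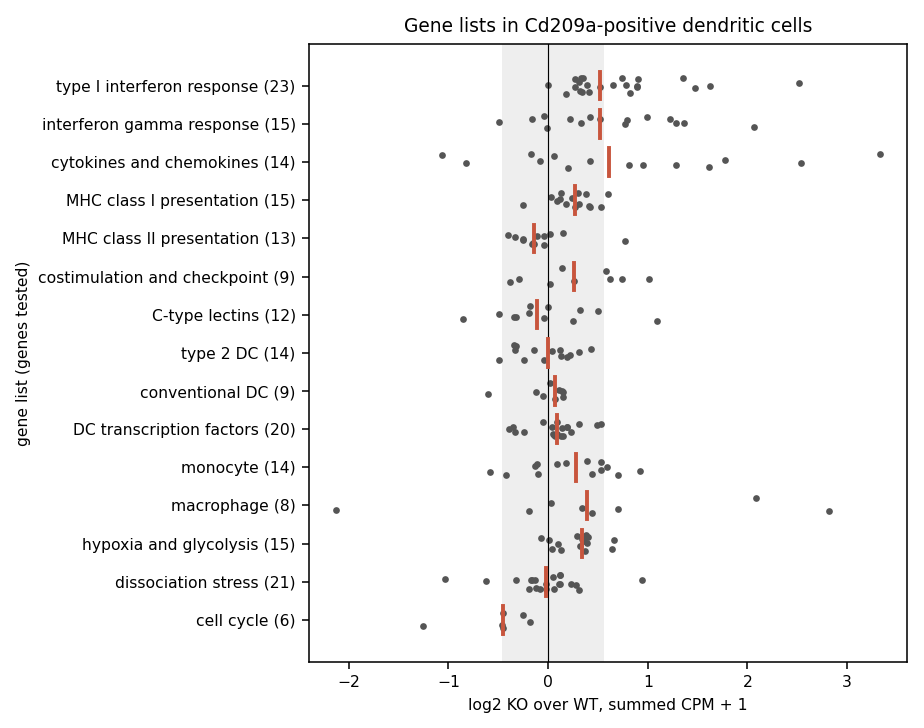
Log2 ratio of KO over WT (horizontal axis, CPM + 1) of each measured gene of 15 lists, a red bar at each list's median, and a grey band from the 5th to the 95th percentile of the 2833 genes measured. Type I interferon genes lie almost all to the right of 0, MHC class II genes mostly just to the left, and type 2 dendritic cell genes and dendritic cell transcription factors around 0.

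In the lists of dendritic cell identity most genes differed little. In the type 2 list, 14 genes had a median log2 ratio of 0.00 with none past 1.5-fold, and in the list of dendritic cell transcription factors 20 genes had a median of 0.09 with none past it. Irf4 was at 51.9 and 53.6 CPM, Zeb2 at 281 and 349 CPM, Spi1 at 415 and 457 CPM, and Klf4 at 202 and 159.8 CPM. Mgl2 was the type 2 gene with the lowest ratio, −0.50 (−0.67 to −0.32), and it was −1.12 with cells thinned to 2000 UMIs, past 1.5-fold. The 15 genes that set members apart leaned lower in KO, with only Bcl11a (0.07) and Lta4h (0.18) above 0. Ffar2 (−0.60), Cdh1 (−0.59), Il1r2 (−0.56), Klrd1 (−0.55), Fcor (−0.53) and Ifitm1 (−0.19) also had counting intervals below 0. Klrd1 was at 0.16 with cells thinned, and Ifitm1 at 0.10 without the members with a Ly6c2 UMI. Among conventional dendritic cell genes, 9 had a median of 0.07, and only the adhesion molecule Nectin1 passed 1.5-fold, at 70.9 and 46.2 CPM. C-type lectins had a median of −0.11 over 12 genes, with Clec4d higher, 1 WT cell holding 8 of its 25 WT UMIs and 1 KO cell 12 of its 59 KO UMIs, and Cd302 lower.

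Costimulation and checkpoint genes had a median of 0.26 over 9 genes, and 3 were at least 1.5-fold higher. These were Cd40, a receptor for T cell help, at 57.9 and 89.6 CPM, Cd83, a maturation marker, at 39.0 and 65.6 CPM, and Cd274, which encodes PD-L1, at 27.0 and 55.4 CPM. Cd83, Cd274 and Cd86 reached 50 CPM in KO alone, so they were measured through the library where they were higher. The median of the list ran from 0.08 to 0.41 over the alternatives. The log2 ratio of Cd40 was 0.35 without the members with a Ly6c2 UMI, and that of Cd83 was 0.49 with 1 Cd209a UMI sufficient, both short of 1.5-fold. Cd86, at 42.9 and 64.7 CPM, was just short of the limit once the pseudocount of 1 CPM was added. Monocyte list genes had a median of 0.28 over 14 genes, with Plac8 (1114 and 1812 CPM), F13a1 (71.9 and 138 CPM) and the Fc receptor Fcgr3 (91.9 and 139 CPM) higher and Lyz2 lower. Members with a Ly6c2 UMI made up 22.5% of WT and 34.7% of KO members, and at 2000 UMIs per cell 13.3% and 20.8%. Without those cells the median of the monocyte list was 0.21 and the Plac8 log2 ratio 0.66, against 0.70 over all members. With 1 Cd209a UMI sufficient Plac8 was at 0.34, and the monocyte median turned to −0.036 there and to −0.0087 with cells thinned to 2000 UMIs.

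The lists named next had medians from −0.45 to 0.34, beside 0.03 over all genes measured. Over all 2833 genes, 4.06% were at least 1.5-fold higher and 2.72% lower, so a single gene in a short list says little. Hypoxia and glycolysis genes had a median of 0.34 with 2 of 15 higher and 0 lower, cholesterol and lipid genes 0.27 with 3 of 13 higher, and NF-kB targets 0.10 with 4 of 16 higher and 1 lower. Genes of the m6A machinery had a median of 0.11 with 1 of 8 higher, pattern recognition genes 0.07 with Ifih1 higher among 5, and ERK feedback genes 0.07 with none of 6 past the limit. The ERK feedback median was −0.30 with 1 Cd209a UMI sufficient and −0.10 with cells thinned to 2000 UMIs. Genes that dissociation of tissue induces had a median of −0.02 over 21 genes, with Rhob higher (0.97) and Nr4a1 (−1.06) and Klf2 (−0.63) lower, and with Fos at 219 and 227 CPM and Jun at 508 and 466 CPM. Cell cycle genes had a median of −0.45, but it was 0.31 with 1 Cd209a UMI sufficient and only 6 of 24 genes were measured. Top2a, the gene past 1.5-fold, had 72 and 32 UMIs in 16 and 11 cells, with 18 of the WT UMIs in 1 cell, and its log2 ratio of −1.28 was −0.06 with 1 Cd209a UMI sufficient. In type 1 dendritic cells the summed cell cycle list was 1.47 times as high in KO, against 0.747 times in members.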

How the data were processed

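The authors sequenced 1 library per genotype (10x Genomics 3′ chemistry, v3) and deposited 1 matrix of UMI counts per gene and barcode for both, with a table that gives each barcode its library. Per the labels and methods, reads were processed with Cell Ranger 4.0.0 on mm10, and the authors kept cells with at least 200 genes and at most 10% mitochondrial reads. The deposited counts cover 31053 genes and 14341 barcodes (5895 WT, 8446 KO), with 45963969 and 54052317 UMIs. The matrix precedes these limits, since it holds 16 barcodes under 200 genes in each library and 229 and 288 over 10% mitochondrial UMIs, and it was taken to include doublets.

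UMIs were summed over the members of each library and scaled to CPM with Python 3.11.15 (numpy 2.4.6, scipy 1.17.1, pandas 2.3.3). Genes that reached 50 CPM in at least 1 of the libraries were compared, after genes for mitochondrial transcripts, ribosomal proteins and haemoglobins were set aside. Calls used log2((KO + 1)/(WT + 1)) past 1.5-fold, and 2-fold against other populations, with 1 CPM as the pseudocount. Printed ratios of single genes carry no pseudocount, with exact conditional binomial intervals, shares have Clopper-Pearson intervals, and ratios of shares have log-normal intervals, all at 95%. No test was run, since each genotype has 1 library. Scrublet as in scanpy 1.11.5 scored doublets, with a rate of 0.8% per 1000 cells. The counting steps were tested on simulated data.

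Genes named were the 5 markers, members of 28 gene lists, the 10 highest and 10 lowest KO over WT ratios in which no cell held over 20% of the UMIs in the library where the gene was higher, the 15 genes highest over 3 populations, the 15 most variable genes, and Mettl3, Mettl14, Lyz2, Lyz1 and Spred2. Genes of the divisions by Mgl2, Cd7, Ly6c2 and Isg15, neighbours of Cd209a, and genes at the edges of these lists were chosen after values were seen. Some genes are not reported here, in the text or the plots. Members and lists were chosen with earlier results of these data known. Alternatives changed the Cd209a, C1q, mitochondrial and gene limits, doublet removal, thinning to 2000 UMIs, per-cell means, centring, the pseudocount, the CPM filter and the top cell of each gene. Leaving out members with macrophage traces, or with a Ly6c2 UMI, was added after the data were seen. Coordinates are from GENCODE M21 (GRCm38), which matched 31011 of 31053 gene identifiers, and promoters from RefSeq on GRCm38.p6, without chromosome 18.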

Additional observations from a re-analysis of the deposited data

Results flagged for a closer look

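Mllt10, which encodes a chromatin protein, had a log2 ratio of KO over WT of −1.14 (−1.89 to −0.42) in the Cd209a-positive cells and of 0.46 (0.04 to 0.89) in MHC class II-high monocytes, so the libraries differed in opposite directions in the 2 populations, each beyond its counting interval. Without the members with a Ly6c2 UMI the Mllt10 ratio in the Cd209a-positive cells was −0.53. Il1r2 did likewise, at −0.56 (−0.97 to −0.15) in the Cd209a-positive cells and 0.58 (0.07 to 1.11) in the monocytes. The difference between the populations itself was not tested, since each genotype has 1 library.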

How the results depend on the processing

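No paired analysis was possible because the labels give no replicate numbers and each genotype has 1 library. The log2 ratio of the share of filtered cells ran from −0.22 to −0.15 and that of the share of dendritic cells from −0.0017 to 0.11. The count of genes 2-fold above each other population ran from 20 to 35 against 26. The type I interferon median (0.26 to 0.97) and the MHC class II median (−0.21 to −0.010) kept their direction under all 16 alternatives. The medians of interferon gamma (0.16 to 0.65), cholesterol and lipid (0.095 to 0.46) and costimulation genes (0.082 to 0.41) also kept it but fell far below their main values under some settings. With 1 Cd209a UMI sufficient, the ERK feedback median was −0.30 (0.07 over all members), the cell cycle median 0.31 (−0.45), the monocyte median −0.036 (0.28) and the hypoxia median 0.65 (0.34), a setting that adds a KO barcode of 85533 UMIs. Up to 20 C1q UMIs per 10000 gave a cytokine median of 0.24, and the mean of per-cell CPM 0.16, against 0.61. Leaving out the cells with the highest Scrublet scores gave a cytokine median of 0.94, with Ccl3 at 0.74 (−0.84) and Spp1 at 1.17 (−2.14). Thinning to 2000 UMIs left fewer UMIs per gene, and the rule then chose the members anew from the thinned counts. This setting gave 599 genes higher and 536 lower in KO, of which 58 and 43 were among the 115 and 77. Its medians were 0.97 for type I interferon, 0.54 for conventional dendritic cell, 0.080 for hypoxia, −0.28 for macrophage and −0.0087 for monocyte genes. Ccl3 (1.41), Ccl7 (−0.40, against 3.37), Cxcl2 (1.01, against −2.21), Fcgr1 (−0.0088, against 0.44), Hmox1 (−0.093, against 0.99), Klrd1 (0.16, against −0.55), Maf (−0.16, against 1.62) and Pf4 (−1.50, against 2.11) then reversed. A 20 CPM filter gave 378 higher and 360 lower, and a 100 CPM filter 44 and 13 with a cytokine median of 1.12, as more or fewer genes were compared. Without each gene's top cell the cytokine median was 0.97, Ccl3 0.61 and Spp1 1.07. Without the members with macrophage traces Ccl3 was 0.86, Cxcl2 0.47, Pf4 −0.54 and Spp1 0.67. Without those with a Ly6c2 UMI, 117 genes were lower, and Ccl3 was 0.55, Cxcl2 0.26, Ifitm1 0.10 (−0.19) and Spp1 0.67. Beyond these constructions the cause was not tested. Depth limits genes under about 50 UMIs, and no alternative replaces a second library.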
